A study of Rattus norvegicus with 49 samples.

Results

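The liver transcripts described here are those of 10 genes of Kupffer cells, the resident macrophages of the liver, and of macrophages in general: Cd68, Cd163, Clec4f, Marco, Csf1r, Cd5l, Adgre1, Vsig4, C1qa and C1qb. They were found through the RefSeq accession that the array design gives for a probe, which named all 10 genes and 12 probes, of 15154 gene symbols and 30367 probes on the array. Cd5l and Csf1r have 2 probes each, and every gene is described by its brightest probe. All 12 probes were among the 17661 that passed the filter on dim probes.

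Kupffer cells line the liver sinusoids, where they take up bacteria, worn red cells, haemoglobin and complement-coated particles from portal blood. Their survival depends on the CSF1 receptor, and their identity is tied to uptake receptors. Clec4f is a lectin found almost only on Kupffer cells in rodents, Cd163 takes up haemoglobin bound to haptoglobin, Marco is a scavenger receptor for bacteria, Vsig4 binds complement fragments, and Cd5l is a secreted protein of tissue macrophages. Adgre1 encodes the F4/80 antigen, Cd68 a lysosomal glycoprotein of all macrophages, Csf1r the receptor for the growth factor CSF1, and C1qa and C1qb encode chains of C1q, which starts the classical complement pathway.

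F344 rats, an inbred strain, were 7 to 8 weeks old and were given furan, a liver toxicant that forms in heated food, in corn oil by gavage on 5 days a week for 90 days. The doses were 0.03 and 0.12 mg/kg, then 0.5 mg/kg and at most 2 mg/kg, with oil alone (0 mg/kg) for the controls, in males and in females. This gives 10 groups of 5 rats, except for 4 male arrays at 0.03 mg/kg. On every 2-colour array the liver RNA of 1 rat (Cy5) was hybridised with the same universal rat reference RNA (Cy3), with no dye swap, so a value below is the log2 ratio of liver over reference and cannot be compared between genes as an amount of RNA. The whole liver was measured, so fewer macrophages and less RNA per macrophage cannot be told apart.

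Of the 49 arrays, that of male 26 at 0.03 mg/kg was dim, with 5.06% of spots above background in the liver channel, against 37.9% to 71.1% on the others. It was left out, which leaves 48 arrays and 3 males at 0.03 mg/kg. The arrays lie on 8 slides, and slides 5 and 6 had dimmer liver channels and no control arrays. Slide was therefore a fixed block in every test. All 7 hepatocyte markers checked were measured, with a mean log2 ratio of 5.69 to 7.71 on the control male arrays and of 6.3 to 7.52 on the control female arrays. The liver signal of each of the 10 macrophage genes was well above background on 45 to 48 of the 48 arrays.

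C1qa and C1qb lie 9258 bases apart on chromosome 5 of the rat in the GRCr8 assembly (C1qb at 154402276-154407827 and C1qa at 154417086-154419933). Cd163 (chromosome 4, 158770751-158804146) and Cd5l (chromosome 2, 175088915-175099928) lie on different chromosomes, and their log2 ratios varied together most closely of all pairs, as described further on. The windows from 250 bases before to 50 bases after a start site of these 4 genes are shown, as each pair moved together. They run 5′ to 3′ on the strand of the gene and are credited to RefSeq with the GRCr8 build. For Cd163, and for Marco, Csf1r and Adgre1 among the other members, that site lies inside the gene range and not at its edge. Capitals mark GAGGAA, the core bound by the macrophage factor PU.1, or its reverse complement TTCCTC. The positions are chr5:154419884-154420183 (minus strand) for C1qa, chr5:154407778-154408077 (minus strand) for C1qb, chr4:158770524-158770823 (plus strand) for Cd163 and chr2:175088665-175088964 (plus strand) for Cd5l.
C1qa: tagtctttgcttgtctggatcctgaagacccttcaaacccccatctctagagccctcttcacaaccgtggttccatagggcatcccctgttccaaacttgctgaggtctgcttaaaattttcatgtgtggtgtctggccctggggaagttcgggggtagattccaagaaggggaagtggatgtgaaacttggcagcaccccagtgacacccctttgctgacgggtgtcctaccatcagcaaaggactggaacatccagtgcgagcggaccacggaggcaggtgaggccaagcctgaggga
C1qb: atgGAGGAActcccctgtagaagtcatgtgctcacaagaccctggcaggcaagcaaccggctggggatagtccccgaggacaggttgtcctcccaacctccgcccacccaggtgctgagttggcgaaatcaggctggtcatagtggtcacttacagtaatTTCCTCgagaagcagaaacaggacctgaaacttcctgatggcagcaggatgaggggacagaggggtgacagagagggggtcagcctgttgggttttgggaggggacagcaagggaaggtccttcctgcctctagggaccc
Cd163: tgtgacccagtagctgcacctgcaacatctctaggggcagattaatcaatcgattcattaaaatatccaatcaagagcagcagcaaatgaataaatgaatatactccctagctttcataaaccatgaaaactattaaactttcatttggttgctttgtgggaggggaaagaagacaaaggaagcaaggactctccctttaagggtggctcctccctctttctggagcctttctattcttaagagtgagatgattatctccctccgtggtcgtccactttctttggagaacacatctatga
Cd5l: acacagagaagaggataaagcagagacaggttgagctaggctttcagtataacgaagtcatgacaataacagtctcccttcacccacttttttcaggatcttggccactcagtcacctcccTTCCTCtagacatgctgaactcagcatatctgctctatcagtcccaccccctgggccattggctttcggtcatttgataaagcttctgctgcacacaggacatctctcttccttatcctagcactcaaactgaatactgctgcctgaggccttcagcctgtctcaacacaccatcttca
The C1qb window holds 2 matches and that of Cd5l 1, whereas those of C1qa and Cd163 hold 0. The letters occurred in 6 of the 10 members' windows (Marco, Cd5l, Cd68, Adgre1, Csf1r and C1qb) and in 27.6% of the 33469 rat windows of the same length. A match describes these letters only.

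The first question was whether 90 days of furan at 2 mg/kg changed these genes. In males, Clec4f fell by 0.49 ± 0.11 (SE) on the log2 scale against control males, C1qa by 0.49 ± 0.10 and C1qb by 0.30 ± 0.09, with adjusted p values of 0.0007605, 0.0004396 and 0.01112 (limma, n = 5 and 5). These falls are under the 1.5-fold limit that, with an adjusted p of at most 0.05, made a call. Thus 0 of the 10 genes were called, against 5.07% of all tested probes, and 3 of 10 passed the adjusted p alone, as 23.3% of all probes did. The moderated F test for an effect of any dose in males passed for Clec4f (adjusted p = 0.003455) and C1qa (adjusted p = 0.004657) and not for C1qb (adjusted p = 0.08318), against 18.2% of all probes.

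The log2 ratio of C1qa was 5.65, 6.55, 6.48, 6.62 and 4.79 in control males 4, 2, 3, 5 and 6, and 5.85, 5.82, 4.82, 4.67 and 4.46 in males 86, 84, 81, 83 and 87 at 2 mg/kg. The groups overlap, and the lowest array of each group lies on slide 8. The Clec4f ratio was 6.08, 6.89, 6.74, 7.27 and 5.50 in the same control males and 6.40, 6.12, 5.77, 5.21 and 5.02 in the same treated males. C1qb gave 4.28, 4.86, 4.90, 5.14 and 4.18 in controls and 4.60, 4.61, 3.87, 3.69 and 3.83 at 2 mg/kg. Within the 3 slides that hold a control and a 2 mg/kg male, the treated array differed from the control by -0.70, -0.80 and -0.33 for C1qa on slides 2, 4 and 8. The differences were -0.49, -1.15 and -0.48 for Clec4f and -0.26, -0.53 and -0.35 for C1qb, so that each of the 3 genes was lower on all 3 slides. Without control male 5, the adjusted p of C1qb was 0.05577. With no slide term the 3 changes were -0.79, -0.89 and -0.55 for Clec4f, C1qa and C1qb and passed no test (adjusted p = 0.1321, 0.1555 and 0.1544), and with the dim array kept the adjusted p values were 0.5055, 0.4822 and 0.5713.

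**Figure D1:**
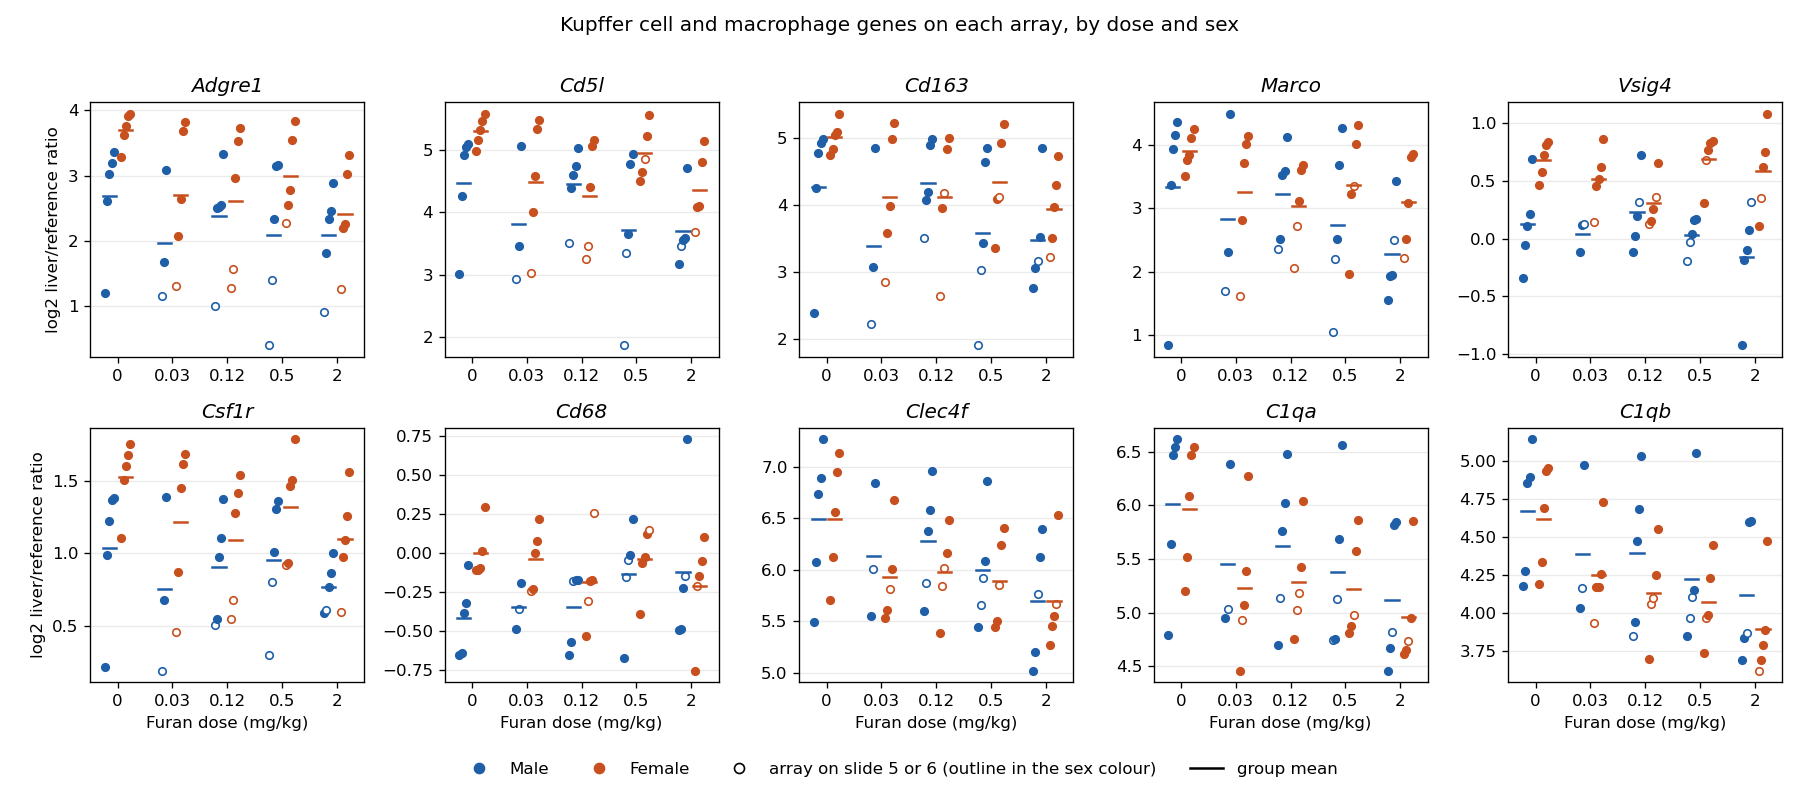
Log2 liver/reference ratio (y axis) of the 10 genes on each of 48 arrays, by furan dose in mg/kg (x axis), males in blue and females in orange, with a line at each group mean and open circles for slides 5 and 6. The y axis differs between genes and does not start at 0. The control males of Marco span 0.837 to 4.36, the lowest Adgre1 array of each of the 8 furan groups is an open circle, and the 5 control females of Adgre1, at 3.28 to 3.95, sit above 4 of the 5 control males.

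Clec4f, C1qa and C1qb have in common that the liver signal stood far above the reference, with mean log2 ratios of 6.06, 5.42 and 4.27 over the arrays. Probes with such ratios fell in general: of the 487 tested probes with a mean log2 ratio of at least 4, the median change in males at 2 mg/kg was -0.46, and 65.9% of them fell with an adjusted p of at most 0.05. The falls of Clec4f and C1qa are close to that median and that of C1qb is smaller. Cd163 and Cd5l are also among these probes and changed by -0.28 ± 0.31 and -0.23 ± 0.27, with no test passed. With the liver channel alone, quantile normalised between arrays, the differences in males were -0.33 ± 0.18 for Clec4f (adjusted p = 0.2002), -0.07 ± 0.16 for C1qa (adjusted p = 0.8041) and 0.09 ± 0.14 for C1qb (adjusted p = 0.7207). In that channel 0 of 10 genes passed the adjusted p. The probes of high ratio still fell there, with a median of -0.34, and 46.6% of them fell with an adjusted p of at most 0.05. Clec4f was close to that median, and C1qa and C1qb were not.

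The remaining genes at 2 mg/kg in males gave no test passed. The lysosomal Cd68 differed from controls by 0.27 ± 0.16, Vsig4 by -0.27 ± 0.17, Marco by -0.49 ± 0.37, Csf1r by -0.04 ± 0.15 and Adgre1 by 0.01 ± 0.21. The second probe of Cd5l differed by -0.01 ± 0.30 and that of Csf1r by -0.10 ± 0.14. Cd68 was at -0.65, -0.32, -0.08, -0.38 and -0.64 in control males 4, 2, 3, 5 and 6, and at -0.49, -0.22, -0.15, -0.49 and 0.73 in males 86, 84, 81, 83 and 87 at 2 mg/kg. Only male 87 lies above all the male controls.

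In females at 2 mg/kg, 0 of the 10 genes were called, against 1.4% of all probes. C1qb fell by 0.33 ± 0.09 (adjusted p = 0.02986, n = 5 and 5), the 1 gene of 10 that passed the adjusted p alone, as 5.97% of all probes did. At an unadjusted p under 0.05 stood C1qa and C1qb, 2 of 10, and 24% of all probes. The F test for any dose passed for 0 of 10 genes in females, against 2.99% of all probes, and at an unadjusted p for C1qb, 1 of 10, against 19.1%. C1qb was at 4.34, 4.69, 4.94, 4.96 and 4.19 in control females 7, 11, 9, 2 and 4, and at 4.48, 3.62, 3.79, 3.89 and 3.69 in females 90, 85, 83, 82 and 92 at 2 mg/kg. The treated arrays lie below every control array except that of female 90. Leaving out control female 2 or 4, or treated female 85 or 92, brought the adjusted p to between 0.065 and 0.07313, and leaving out slides 5 and 6 to 0.09973. With the dim array kept the change of C1qb was -0.13 (adjusted p = 0.8956), with no slide term -0.73 (adjusted p = 0.07263) and in the liver channel alone -0.28 (adjusted p = 0.2721). The difference was -0.21 ± 0.10 for C1qa (adjusted p = 0.2027), -0.22 ± 0.11 for Clec4f, -0.31 ± 0.17 for Cd68 and -0.36 ± 0.22 for Adgre1. The probes with a mean log2 ratio of at least 4 had a median of -0.16 in females.

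**Figure D2:**
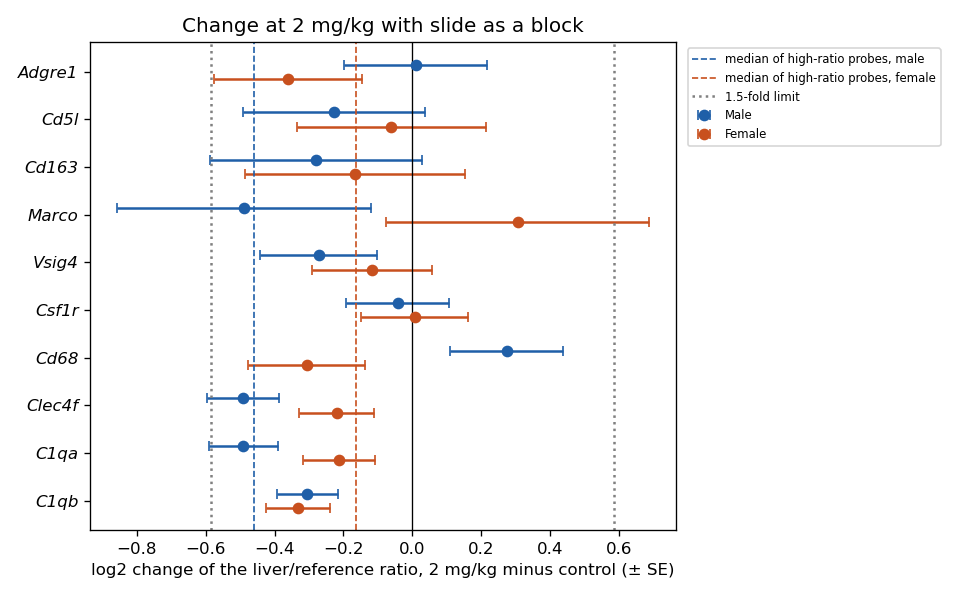
Log2 change of the liver/reference ratio at 2 mg/kg against the controls of the sex (x axis), with standard errors, for the 10 genes (rows), males in blue and females in orange. Dashed lines give the median change of the 487 probes with a mean log2 ratio of at least 4 (-0.46 in males, -0.16 in females), and dotted lines the 1.5-fold limit. Every point lies within the dotted lines, and Clec4f and C1qa in males lie next to the dashed male line.

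Averaged over both sexes, all 10 genes were below 0 at 2 mg/kg, with a median of -0.19 beside -0.01 for all tested probes. Clec4f fell by 0.36 ± 0.08 (adjusted p = 0.001062), C1qa by 0.35 ± 0.07 (adjusted p = 0.0006918) and C1qb by 0.32 ± 0.07 (adjusted p = 0.0006097), so 3 of 10 passed the adjusted p alone, as 25.5% of all probes did. Again 0 of 10 reached the 1.5-fold limit, against 2.2% of all probes. With no slide term, these 3 changes were -0.80, -0.95 and -0.64, past the 1.5-fold limit and over 1.5 times as large. With the dim array kept they were -0.23 for each gene (adjusted p = 0.7, 0.6785 and 0.5823), and in the liver channel alone -0.34, -0.13 and -0.10, with 0 of 10 genes passing. A difference between the sexes in the effect of 2 mg/kg was called for 0 of 10 genes, against 1.08% of all probes. The largest by unadjusted p was that of Cd68, at 0.58 ± 0.23 (unadjusted p = 0.01484, adjusted p = 0.1507), the 1 gene of 10 with an unadjusted p under 0.05, as 18.9% of all probes had. The estimate was 0.27 in males and -0.31 in females.

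At 0.03, 0.12 and 0.5 mg/kg, 0 of the 30 gene and dose pairs were called in males and 0 of 30 in females. The shares of all probes called were 0%, 0.3% and 0.362% in males and 0.017%, 0.0113% and 0.0283% in females. In limma an unadjusted p under 0.05 was reached by 1 pair in each sex, C1qa in males at 0.5 mg/kg (-0.23 ± 0.10, adjusted p = 0.3862, with 11.2% of all probes) and C1qb in females at 0.5 mg/kg (-0.22 ± 0.09, adjusted p = 0.2209, with 15.2%). The changes spanned -0.27 to 0.41 in males and -0.38 to 0.20 in females. In females at 0.12 mg/kg all 10 genes were below 0, with a median of -0.16 beside -0.03 for all probes, and in males at that dose 3 of 10 were below 0. In these comparisons the doses share the control arrays of a sex.

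Control males were then set against control females. Adgre1, the F4/80 antigen, differed by -0.96 ± 0.20 on the log2 scale, lower in males, and Cd5l by -0.74 ± 0.26, and these 2 of 10 genes were called (adjusted p = 0.0006329 and 0.03558), against 6.42% of all probes, and 3.56% in this direction. Vsig4 (-0.54 ± 0.16, adjusted p = 0.01608), Cd68 (-0.45 ± 0.16, adjusted p = 0.03934) and Csf1r (-0.40 ± 0.15, adjusted p = 0.04572) were lower in males under the 1.5-fold limit, so that 5 of 10 passed the adjusted p alone, as 21.7% of all probes did. Cd163 (-0.65 ± 0.30, adjusted p = 0.1146) and Marco (-0.37 ± 0.36) did not pass. Clec4f differed by 0.01 ± 0.10, C1qa by 0.11 ± 0.10 and C1qb by 0.03 ± 0.09. The median over the 10 genes was -0.42, and 0.02 over all tested probes. With the scanner software's log ratio it was -0.12, Cd5l turned to 0.31 and Marco to 0.17, neither with a test passed, and Adgre1 was at -0.77 ± 0.29 (adjusted p = 0.07067), so that both calls ended and Vsig4 was called instead (-0.71, adjusted p = 0.03762).

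The log2 ratio of Adgre1 was 2.60, 3.02, 3.20, 3.37 and 1.20 in control males 4, 2, 3, 5 and 6 and 3.76, 3.95, 3.62, 3.91 and 3.28 in control females 7, 11, 9, 2 and 4. Control male 5 lies above control female 4, and the other 4 males below all females. Cd5l was at 4.26, 4.92, 5.10, 5.05 and 3.01 in these males and at 5.47, 5.58, 5.32, 5.16 and 4.99 in these females, which overlap by the arrays of 2 males and 1 female. The slides numbered 1 to 4 each hold a control male and a control female, and within them the male array differed by -1.16, -0.93, -0.42 and -0.54 for Adgre1 and by -1.21, -0.66, -0.22 and -0.10 for Cd5l. Both genes were lower in the male on all 4 slides. The second probe of Cd5l differed by -0.68 ± 0.29 (adjusted p = 0.08781), and the second probe of Csf1r by less than 0.01 on the log2 scale, so the probes of Csf1r disagree. The reference channel of Cd5l was not well above background on the arrays of all 5 control males and of control females 9 and 2.

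Leaving out any of control males 4 and 6 or control females 4, 7 and 11 brought Cd5l to an adjusted p of 0.0644 to 0.1217, whereas Adgre1 stayed called without each array in turn (adjusted p of at most 0.003941). Vsig4, Cd68 and Csf1r reached adjusted p values of up to 0.09926, 0.1374 and 0.1418 in the same way. With no slide term, Adgre1 differed by -1.02 ± 0.54 (adjusted p = 0.3661) and Cd5l by -0.83 ± 0.48 (adjusted p = 0.4322), and in the liver channel alone Cd5l differed by -0.50 ± 0.19 (adjusted p = 0.07077). The same difference was measured in treated rats, which are other animals. For Adgre1 it was -0.77 ± 0.24 at 0.03, -0.53 ± 0.21 at 0.12, -0.72 ± 0.21 at 0.5 and -0.58 ± 0.20 at 2 mg/kg, with adjusted p values of 0.04069, 0.09102, 0.01883 and 0.0347. All 5 female groups ranked above all 5 male groups for Adgre1 after slides were adjusted for. In that order the only neighbours apart at an unadjusted p under 0.05 were the females at 2 mg/kg, lowest of their sex, and the males at 0.12 mg/kg, highest of theirs (0.44, unadjusted p = 0.04127).

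Vsig4, Cd5l and Marco were also called between the sexes in treated rats. Vsig4 was lower in males, by a difference of -0.73 ± 0.17 at 0.5 mg/kg (adjusted p = 0.002874) and of -0.70 ± 0.17 at 2 mg/kg (adjusted p = 0.002523). Cd5l differed by -1.18 ± 0.26 at 0.5 mg/kg (adjusted p = 0.001914) and by -0.91 ± 0.26 at 2 mg/kg (adjusted p = 0.01063), and Marco by -1.16 ± 0.36 at 2 mg/kg (adjusted p = 0.01804). At 0.12 mg/kg 0 of 10 genes were called, with a median of -0.01, and only Adgre1 had an unadjusted p under 0.05, beside 25.9% of all probes. Cd5l differed by 0.02 ± 0.26. The shares of all probes called between the sexes were 4.48%, 4.32%, 4.77% and 6.85% from 0.03 to 2 mg/kg.

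For Clec4f, C1qa and C1qb, each channel alone was lower in control males. The adjusted p was at most 0.05, except for Clec4f in the reference channel. The ratios of these genes in the fit reported passed no test. In the liver channel alone, these genes differed between control males and females by -0.64 ± 0.18 (adjusted p = 0.01145), -0.50 ± 0.15 (adjusted p = 0.02343) and -0.61 ± 0.14 (adjusted p = 0.002017). In the reference channel alone, which carried the same reference RNA on every array, they differed by -0.60 ± 0.16 (adjusted p = 0.0503), -0.59 ± 0.15 (adjusted p = 0.0308) and -0.59 ± 0.15 (adjusted p = 0.0238). Both channels were lower on the male arrays. With the scanner software's log ratio, Clec4f (0.36 ± 0.12, adjusted p = 0.03225) and C1qa (0.44 ± 0.12, adjusted p = 0.009349) were higher in control males, under the 1.5-fold limit. With it, C1qb differed by 0.24 ± 0.10 and did not pass (adjusted p = 0.1044). In the liver channel alone all 10 genes were below 0, 5 of 10 passed the adjusted p (Clec4f, Vsig4, Adgre1, C1qa and C1qb, against 13.7% of all probes) and 2 of 10, Clec4f and C1qb, were called, against 4.34% of all probes. Adgre1 differed by -0.48 ± 0.11 there (adjusted p = 0.002738), and by -0.11 ± 0.05 in the reference channel. The reference of Adgre1 was well above background on 27 arrays, and that of Clec4f, C1qa and C1qb on all 48, which limits this contrast.

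**Figure D3:**
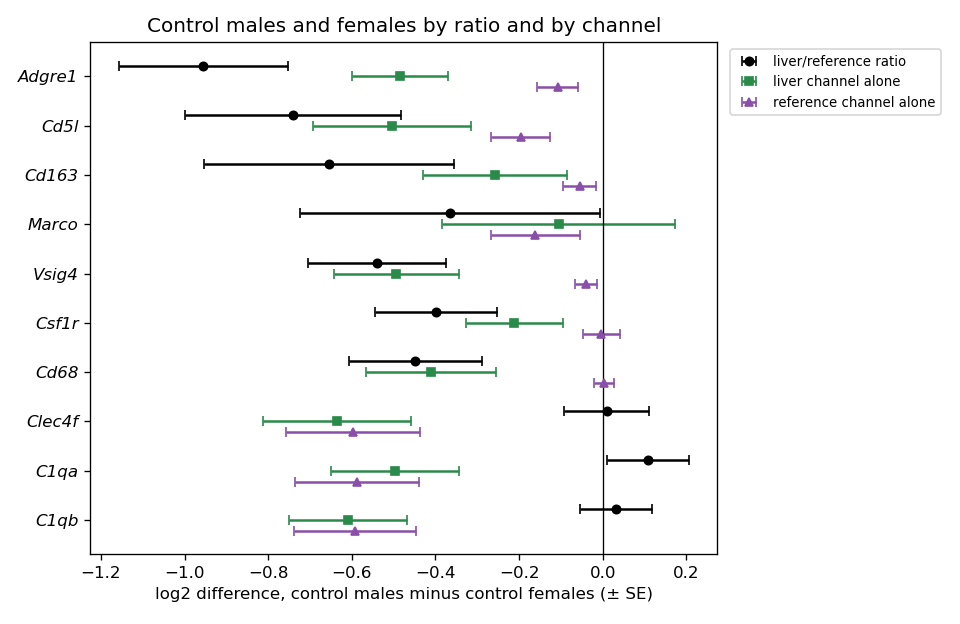
Log2 difference between control males and control females (x axis, males minus females, with standard errors) for the 10 genes (rows), from the liver/reference ratio (black circles), the liver channel alone (green squares) and the reference channel alone (purple triangles). For Clec4f, C1qa and C1qb the green and purple marks lie together between -0.50 and -0.64 and the black marks near 0, whereas for Adgre1 the purple mark is at -0.11.

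Array by array, after group and slide were taken out, the reference signal of these 3 genes followed the liver signal of the same array. Pearson's r over the 48 arrays was 0.879 for Clec4f, 0.893 for C1qa and 0.878 for C1qb, and Spearman's rho was 0.852, 0.864 and 0.865. Each of these had a permutation p of 1e-05, the smallest that the permutations can give, and 2e-05 after adjustment over the 10 genes. Without the 2 arrays farthest from the median, r was 0.869, 0.866 and 0.856. Marco (r = 0.777) and Cd5l (r = 0.735) showed the same, while r was 0.105 to 0.263 for Vsig4, Cd163, Csf1r, Adgre1 and Cd68, with no permutation test of r passed. By rho, Adgre1 passed (rho = 0.391, permutation p = 0.006, adjusted p = 0.01), and the other 4 did not. The reference was well above background on 2 arrays for Cd163, 23 for Cd5l, 27 for Adgre1 and 34 for Marco. For the other members it was so on all 48. Both channels of an array share its spots, hybridisation and scan. The median r was 0.238 over all tested probes and 0.529 over those with a mean log2 ratio of at least 4. An r above 0.85, as in the 3 genes, was found for 1.36% and 7.19% of these probes.

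**Figure D4:**
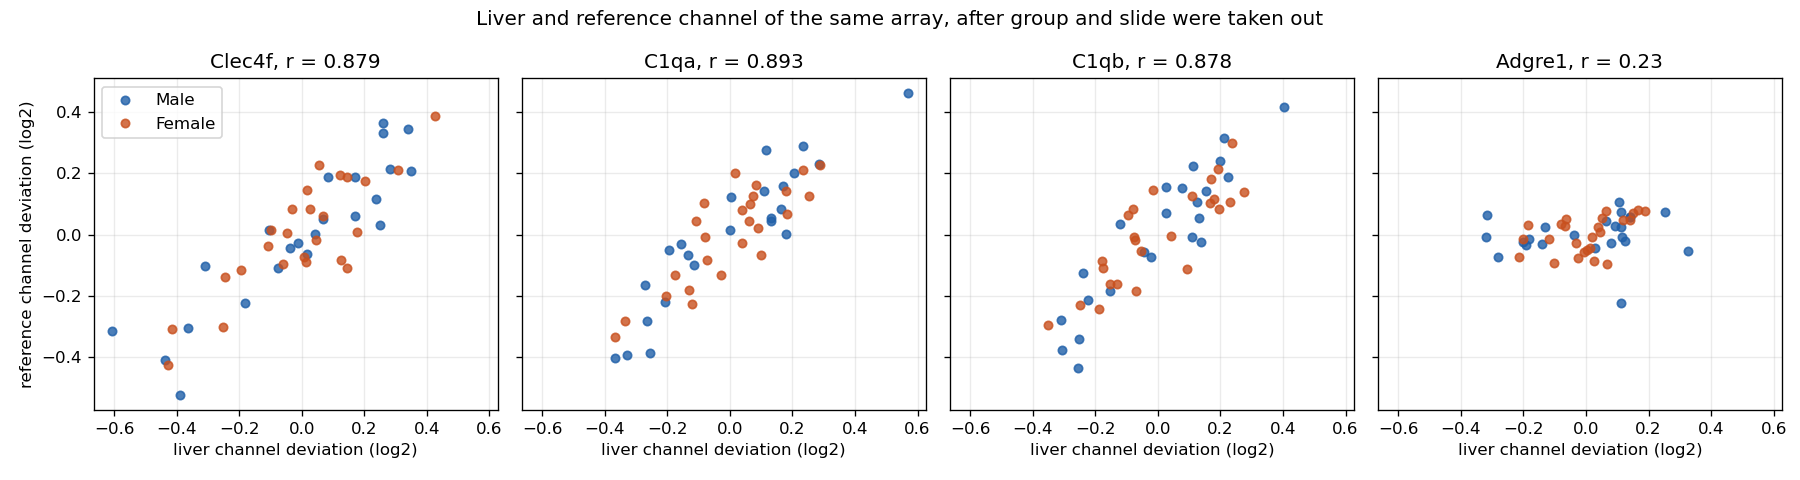
Deviation of the reference channel (y axis, log2) against that of the liver channel (x axis, log2) on each of 48 arrays for Clec4f, C1qa, C1qb and Adgre1, after group and slide were taken out, males in blue and females in orange. The points of the first 3 genes lie close to a line (r of 0.878 to 0.893), and those of Adgre1 are scattered (r of 0.23, rho of 0.391). The reference of Adgre1 was well above background on 27 of the 48 arrays.

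Slides shifted most tested probes and all 10 genes, which was known of these genes before the test. The F test for slides passed for 10 of 10, against 90.7% of all probes, and the range of the slide means after adjustment for group had a median of 1.55 over the genes and of 0.63 over all tested probes. Adgre1 had a range of 2.38, from -1.51 on slide 5 to 0.87 on slide 4 around its mean, and C1qa one of 1.75. With 1 channel at a time, C1qa had a slide range of 0.448 in the liver and of 1.59 in the reference channel, and Clec4f of 0.313 and 1.22. Adgre1 had 0.496 and 0.171, and Cd163, whose reference was well above background on 2 of 48 arrays, had 0.429 and 0.0904. After group and slide, the residual SD of the ratio was highest for Marco (0.60), Cd163 (0.50) and Cd5l (0.43) and lowest for C1qb (0.13), with a median of 0.17 over all probes.

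The log2 ratios of the genes rose and fell together over the 48 arrays once group and slide were taken out. Of 45 pairs, 43 had an r above 0, with a median of 0.457, and 31 passed an adjusted p of 0.05 in the permutation test. Over all pairs of tested probes 51.9% had an r above 0, the median was 0.011 and 3.28% lay above the median of the 45. The permutation test was run on the 45 pairs only, so the share of all pairs that would pass is not known. Cd163 and Cd5l had an r of 0.883 (rho = 0.886), Cd163 and Marco of 0.878 (rho = 0.91) and Marco and Cd5l of 0.831 (rho = 0.779), each with a permutation p of 1e-05, an adjusted p of 2.5e-05, and an r of 0.891, 0.877 and 0.8 without the 2 farthest arrays. These 3 receptors and secreted products varied with Adgre1, Csf1r and Vsig4. Cd68 had an r of 0.666 with Csf1r, 0.533 with Adgre1, 0.526 with Marco and 0.457 with Cd163. It had 0.336 with Cd5l and 0.283 with Vsig4. Clec4f, C1qa and C1qb varied among themselves, with an r of 0.702 for Clec4f and C1qb, 0.672 for Clec4f and C1qa and 0.571 for C1qa and C1qb. With the 6 genes Cd163, Cd5l, Marco, Adgre1, Csf1r and Vsig4, C1qb had an r of -0.09 to 0.294, with 0 of 6 past the adjusted p. For Clec4f r was 0.209 to 0.418 and for C1qa 0.253 to 0.493, with 4 of 6 past it for each. By rho, the permutation test of Clec4f passed with Cd163 (adjusted p = 0.043) and Marco (adjusted p = 0.036). It did not pass with Cd5l (adjusted p = 0.057) or Vsig4 (adjusted p = 0.32). Without the 2 farthest arrays, r for Clec4f ran from 0.027 with Adgre1 to 0.308 with Cd163. C1qa passed with the same genes by rho as by r. In the liver channel alone C1qb varied with those 6 genes too, with an r of 0.769 between Cd163 and C1qb and of 0.796 between Adgre1 and C1qb. The reference channel alone, with the same RNA on every array, gave an r of 0.861 for C1qa and C1qb. It gave 0.807 for Clec4f and C1qb, 0.687 for Clec4f and C1qa and 0.767 for Marco and Cd5l. For Cd163 it was 0.0805 with Cd5l, 0.208 with Marco and -0.101 with C1qb, and for Adgre1 and C1qb 0.172. The part of the reference channel in the pairs of ratios was not tested.

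**Figure D5:**
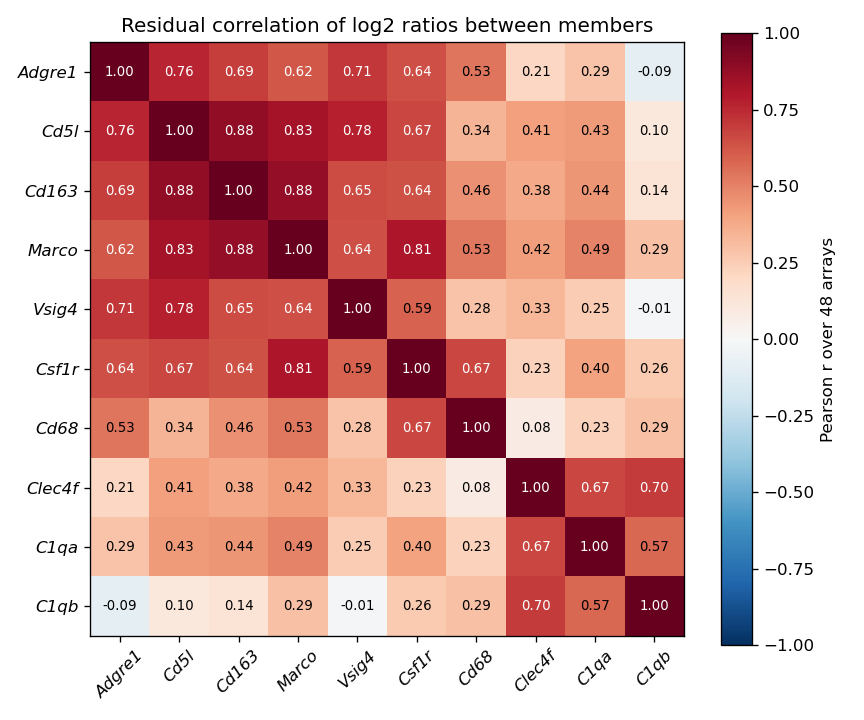
Pearson's r between the log2 ratios of each pair of the 10 genes over 48 arrays, after group and slide were taken out (rows and columns are genes, colour runs from -1 in blue to 1 in red). A block of high values joins Adgre1, Cd5l, Cd163, Marco, Vsig4 and Csf1r (0.59 to 0.88), and Clec4f, C1qa and C1qb have 0.57 to 0.70 among themselves. Between these and the first block, values run from -0.09 for C1qb and Adgre1 to 0.49 for C1qa and Marco. Cd68, counted in neither, runs from 0.08 with Clec4f to 0.67 with Csf1r.

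The genes most like the mean of the 10, by the same residuals over 48 arrays, were Cfd (r = 0.916), Ccl6 (r = 0.893), Fcna (r = 0.834), Ctss (r = 0.821), Cfp (r = 0.82), Anxa3 (r = 0.815), Ifitm1 (r = 0.811), Erg (r = 0.805), Glul (r = 0.779) and Plvap (r = 0.775). Among them are the complement factors Cfd and Cfp, the lectin Fcna, the lysosomal protease Ctss, and Erg and Plvap, which are known from endothelial cells.

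Other macrophage genes were counted in lists. Of the Kupffer cell identity list, 13 of 15 genes were tested. Nr1h3, the oxysterol receptor LXR alpha, fell by 0.38 ± 0.07 in males at 2 mg/kg (adjusted p = 7.713e-05), under the fold limit, and Folr2 differed by 0.17 ± 0.19. In the controls, Clec1b (-0.93 ± 0.22, adjusted p = 0.002331), the iron exporter Slc40a1 (-0.64 ± 0.10, adjusted p = 9.556e-06) and the interleukin 18 inhibitor Il18bp (-0.63 ± 0.09, adjusted p = 1.968e-06) were called lower in males, 3 of 13, against 3.56% of all probes. The genes named for a call between the controls, here and further on, were chosen after their values were seen.

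Of the C1 complex and its regulators, 8 of 8 genes were tested and 0 were called at any dose. Passing the adjusted p alone in males at 2 mg/kg were the proteases C1s (-0.55 ± 0.15, adjusted p = 0.00645) and C1r (-0.45 ± 0.15, adjusted p = 0.02993), their inhibitor Serping1 (-0.42 ± 0.13, adjusted p = 0.01367) and C4a (-0.51 ± 0.10, adjusted p = 0.0001984), all of which hepatocytes are known to make. In males at 2 mg/kg 5.07% of all probes were called and 23.3% passed the adjusted p alone. C4a was named after its values were seen. C1qc, the chain that joins C1qa and C1qb in C1q, differed by -0.11 ± 0.16 in males and by -0.05 ± 0.16 in females. The median of the list was -0.34 in males at 2 mg/kg. The CSF1 receptor pathway, with 11 of 12 genes tested, had 0 genes called at any dose, and so had the scavenging and phagocytosis receptors, with 13 of 16 tested. In males at 2 mg/kg their medians were 0.14 and 0.02, the growth factor Csf1 differed by -0.12 ± 0.09 and Il34, the other ligand of that receptor, by 0.26 ± 0.17, and the scavenger receptor Msr1 by -0.04 ± 0.15.

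Between control males and females, 4 of the 13 scavenging and phagocytosis receptors were called, all lower in males, against 3.56% of all probes in this direction. They were the fatty acid and lipoprotein receptor Cd36 (-3.07 ± 0.29, adjusted p = 2.061e-10), the integrin Itgb2 (-0.78 ± 0.12), the mannose receptor Mrc1 (-0.63 ± 0.14) and the sialic acid receptor Siglec1 (-0.60 ± 0.15). Of the list, 0 were called higher in males, and 11 of 13 were below 0. The whole liver was measured, and which cells gave these differences, that of Cd36 included, was not tested.

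Among lysosomal and iron genes, 3 rose in males at 2 mg/kg with a call, the glycoprotein Gpnmb by 1.24 ± 0.33 (adjusted p = 0.005947), lysozyme Lyz2 by 0.88 ± 0.24 (adjusted p = 0.005753) and the ferritin light chain Ftl1 by 0.89 ± 0.19 (adjusted p = 0.0007391). They are 2 of 12 lysosomal and 1 of 11 iron genes. For these and the next lists, the shares of all probes called at 2 mg/kg were 5.07% in males and 1.4% in females. Of the 15 tested genes of monocyte recruitment and inflammatory activation, osteopontin, Spp1, rose by 0.69 ± 0.19 in males (adjusted p = 0.008498), and the cytokine Il1b fell by 0.71 ± 0.21 in males (adjusted p = 0.01334) and by 0.91 ± 0.22 in females (adjusted p = 0.01434). Coro1a, an actin-binding protein of leukocytes, rose by 0.66 ± 0.22 in males (adjusted p = 0.0288), 1 of 11 genes of leukocytes in general. Between the controls, the lysosomal Lipa (-1.01 ± 0.14) and Cd63 (-1.05 ± 0.19) were called lower in males and Ctsc (0.66 ± 0.10) and Lyz2 (0.76 ± 0.23) higher, the transferrin receptor Tfrc was called higher (0.61 ± 0.15), and Il1b lower (-0.68 ± 0.21). Of all probes, 6.42% were called between the controls.

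Markers of other liver cells moved in the same comparisons. Of all probes, 5.07% were called in males at 2 mg/kg, 1.4% in females at 2 mg/kg and 6.42% between the controls. In males at 2 mg/kg, 3 of 4 tested bile duct markers (Krt19, Epcam and Cftr) and 2 of 7 stellate cell markers (Lrat and Col3a1) were called higher, 2 of 4 red cell markers (Hbb and Slc4a1) were called lower, and all 7 hepatocyte markers were below 0 with a median of -0.33 and 0 called. In females at 2 mg/kg, 1 of 4 bile duct markers (Epcam, 0.60 ± 0.16) was called higher and 1 of 6 sinusoidal endothelial markers (Cd300lg, -0.89 ± 0.22) lower, and 4 of 4 red cell markers were below 0 with a median of -0.39 and 0 called. Between the controls, 3 of 6 tested sinusoidal endothelial markers (Lyve1, Oit3 and Cd300lg) and 2 of 3 tested neutrophil markers (S100a9 and Camp) were called lower in males. The mean log2 ratio of the endothelial markers ran from 1.65 to 2.84 on the control male and from 2.66 to 3.18 on the control female arrays, and that of the 10 macrophage genes from 2.16 to 3.75 and from 3.47 to 3.83. Lrat of the stellate cells and Slc4a1 of the red cells were also called lower in control males, and of the hepatocyte markers Ttr was called higher and Ass1 lower. The part of these cells in the results was not tested. Of T and NK cell, B cell and dendritic cell markers, 4, 1 and 1 were tested and 0 were called in either comparison.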

How the data were processed

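Agilent 2-colour arrays on 8 slides compared Cy5-labelled liver RNA of single rats with a Cy3-labelled reference mix. The deposited scanner files, made with Agilent Feature Extraction 10.7.3.1 per the submitters' processing notes, hold an intensity per spot, its local background, quality marks, and a log10 ratio that the software background subtracted and dye normalised. The deposited series matrix holds log2 ratios that the authors normalised in R, with 0 columns unmapped. Without control spots, an array holds 58717 spots of 30367 probes.

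Signals were corrected by normexp with an offset of 50 and normalised by loess within arrays in limma 3.58.1 under R 4.3.3. Spots with an outlier or uniformity mark were dropped, and the rest averaged per probe. Probes entered the fit if 4 or more arrays of any group detected them in the liver channel, which left 17661. RefSeq accessions in the files were matched to GRCr8 symbols, which named 18004 probes (59.3%). A gene is given by its brightest probe in the liver channel, and every member is named. From the other lists, genes called at any dose are named, except 1 that is not reported here, and up to 4 more in the written order.

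The limma model had 1 mean per sex and dose and slide as a fixed block, fitted over all tested probes, with Benjamini-Hochberg adjustment within a comparison. A call needs an adjusted p of at most 0.05 and a fold of at least 1.5, and an F test only the former. Tests are 2-sided. Permutation tests of correlations drew 1e+05 permutations. The fit was tested on simulated data: with 100 of 17661 probes changed 1.5-fold in males at 2 mg/kg, 80% passed the adjusted p and 48% were called, and with 100 changed 2-fold 97% were called. Both sets were changed in the same run. A change set at the 1.5-fold limit lands on either side of it, so the 48% follows from that setting. In the data 23.3% of all probes passed the adjusted p at this dose, far more than were changed here. The changed probes were drawn at random from all tested probes, whose median residual SD was 0.17. Marco (0.60), Cd163 (0.50), Cd5l (0.43), Adgre1 (0.33), Vsig4 (0.27), Cd68 (0.26) and Csf1r (0.24) had larger SDs. These shares therefore do not give the sensitivity for those genes.

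The members and lists were chosen with earlier results of these data known. The sex differences at each dose, the probes of high ratio and the comparison of channels were added after the data were seen. Rats are separate animals, and the number of arrays limits the precision. Of the 49 arrays, 46 matched best a series matrix column of their own group, 7 of them that of the same animal, so that matrix was used by group only and an animal's number names its scanner file here. The arrays of male 26 (0.03 mg/kg), female 62 (0.5 mg/kg) and male 83 (2 mg/kg) matched none. Other normalisations, filters, blocks and left-out arrays were tried as alternatives.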

Additional observations from a re-analysis of the deposited data

Results flagged for a closer look

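Within groups, 6 of 90 sets of 5 arrays had an array far from the others, by a gap of over 0.71 of the range, which is 6.67%, beside the 5% that chance gives. In control males, animal 6 on slide 8 was low for Cd163 (2.39, others 4.25 to 4.98, gap 0.718 of the range) and for Marco (0.837, others 3.37 to 4.36, gap 0.719). In males at 2 mg/kg, animal 86 on slide 2 was high for Cd5l (4.71, others 3.16 to 3.59, gap 0.722) and animal 87 on slide 8 was high for Cd68 (0.729, others -0.491 to -0.15, gap 0.72). For C1qa in females at 2 mg/kg, animal 90 on slide 2 was high (5.86, others 4.62 to 4.95, gap 0.73), and for C1qb in males at 0.5 mg/kg, animal 70 on slide 3 (5.05, others 3.85 to 4.15, gap 0.749). These are ratios before slides were adjusted for.

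The second probe of Cd5l, which the counts do not use, was called between the sexes at 0.5 mg/kg, with a difference of -1.08 (adjusted p = 0.0118), lower in males, in the direction of the brightest probe. It was also called at 2 mg/kg, with -0.90 (adjusted p = 0.02292).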

How the results depend on the processing

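The 10 genes had 0 calls at the lower doses in either sex, at 2 mg/kg in females, and for the difference between the sexes at 2 mg/kg under every alternative with the 1.5-fold limit. With an adjusted p and no limit on the fold, 3 genes passed at 2 mg/kg in males, 1 in females, 3 averaged over the sexes and 5 between the control sexes.

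Calls at 2 mg/kg in males rose from 0 to 1 with the scanner software's log ratio. Averaged over the sexes they rose from 0 to 3 with no slide term and to 1 with the authors' matrix values. An effect of any dose in males was called for 2 genes in the fit reported, for 1 with slide as a random block, and for 0 with no slide term, with all 49 arrays, with all 49 arrays and no slide term, with median centring, with the liver channel alone, with the authors' matrix values and with only the male arrays. In females it was called for 1 gene, not 0, with array weights.

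The difference between control males and females was called for 2 genes, and for 0 with no slide term, on 48 arrays or on all 49. It was called for 1 with slide as a random block, all 49 arrays, no background correction, the scanner log ratio, the authors' matrix values, no filter, probes above background on every array (7 genes tested) or the mean of a gene's probes, and for 5 with median centring, which moved the median of all probes to -0.15. In that difference, Clec4f and C1qb turned to -0.64 and -0.61 with the liver channel alone, and Cd5l to 0.31 with the scanner log ratio. The slide effect was called for 10 genes, and for 5 with the liver channel alone. Matrix values were fitted without slides. Aquantile left every ratio as it was, by its construction. The cause of the other changes was not tested.

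Leaving out 1 array at a time gave 1 to 3 genes for any dose in males, 1 to 3 between the control sexes, 8 to 10 for slides and 0 for every other count. The count for any dose fell to 1 without male 84 at 2 mg/kg.

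Animal numbers are shared by a male and a female in 8 cases, and these are different rats. Their residuals correlated by -0.289 to 0.26, over 0.1 in 3 of 8 pairs. The replicate block on that number (consensus correlation 0.0208) gave 2 genes between the control sexes and changed no call at any dose, and 9 rather than 10 genes for slides.

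Low signal limits Cd163, Cd5l, Adgre1 and Marco, whose reference channel was well above background on 2, 23, 27 and 34 of the 48 arrays.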
